A study of Mus musculus with 2 samples.

Results

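The 42 genes described here encode the soluble hydrolases of the lysosome, the activator proteins that present lipids to them, and proteins of the lysosomal membrane. They were chosen by name from a fixed list, matched by gene symbol, and are 42 of the 55536 annotated genes quantified. The choice used names only, not levels, and was made with earlier results of these data known. The measurements are from 2 libraries sequenced from the polyadenylated RNA of primary macrophages, derived from C57BL/6J mouse bone marrow. Both belonged to 1 group, biological replicates 1 and 2, exposed to a bacterial ligand at 100 ng/ml for 30 min. One label field calls the ligand lipid A and others call it lipoprotein A, and the labels do not settle which was used. Each library has a biosample entry of its own, both entries point to the same donor entry, and sex and age were not collected. No untreated sample was part of the group, so none of the levels below can be read as a response to the ligand.

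Lysosomes are the acidic compartment in which a cell breaks down what it has engulfed or recycled. Each hydrolase cuts a particular bond, most reach the lysosome with a mannose 6-phosphate tag, and loss of a single enzyme lets its substrate pile up as a storage disease. Macrophages degrade whole cells and particles and are among the cells in which such storage shows most. Many lysosomal genes carry in their promoters an E-box (CACGTG) within a longer palindrome, the CLEAR element, to which the transcription factors TFEB and TFE3 bind.

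The E-box is shown first. The choice of genes did not use the sequence, but the element is known from the promoters of lysosomal genes. A higher share among genes chosen as lysosomal is therefore not independent of the choice. RefSeq promoter windows on GRCm38.p6, from 250 bases before to 50 bases after the start site, were at hand for 37 of the 42 genes, and 3 of these had more than 1 window. CACGTG, which reads the same on both strands, was found in 10 of the 37 genes (27.0%). It was in 8.09% of all 27025 genes with a window, in 12.5% of the 8175 that reached 1 TPM in each library, and in 12.2% of the 837 that reached 100 TPM. TPM, the unit of level used throughout, scales the reads of a transcript by its length and by the sum over the library. The full palindrome, CACGTG with GT before it and AC after it, was found in 1 of the 37 (2.70%), Cln3, against 0.370% of all genes, 0.930% of those that reached 1 TPM and 1.08% of those that reached 100 TPM. With up to 1 mismatch it was found in 8 (21.6%), against 2.06%, 4.02% and 5.38% in the same sets. The longer motif holds the shorter one whenever its centre is intact, so these counts are not independent. A match is a description of the sequence and does not show that a factor is bound there.

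All 16 matches to CACGTG lay before the RefSeq start site, 10 of them within 100 bases of it. The annotation used for the levels places some gene starts further upstream. By its bounds the matches in Cln3, that in Naglu and the one nearer the RefSeq start site in Mcoln1 lie inside the gene. That in Sgsh spans its start. For Cln3 the annotation starts the gene at chr7:126585817, so that the whole window, with the full palindrome, lies inside it. The 4 genes with more than 1 match are printed here as the 250 bases before the start site, 5′ to 3′ on the gene's strand, with CACGTG in capitals. Lamp1 encodes one of the most abundant proteins of the lysosomal membrane and its window lies at chr8:13158911-13159160 on the plus strand. Gla (alpha-galactosidase A) has its window at chrX:134601006-134601255 on the minus strand. Cln3, a membrane protein whose loss causes juvenile Batten disease, has it at chr7:126583237-126583486 on the minus strand. Mcoln1, the calcium channel TRPML1, has it at chr8:3500269-3500518 on the plus strand.
Lamp1: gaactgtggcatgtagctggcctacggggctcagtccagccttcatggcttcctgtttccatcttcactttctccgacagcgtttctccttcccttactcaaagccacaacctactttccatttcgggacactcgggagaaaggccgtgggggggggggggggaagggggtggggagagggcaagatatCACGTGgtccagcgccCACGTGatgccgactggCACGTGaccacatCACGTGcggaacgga
Gla: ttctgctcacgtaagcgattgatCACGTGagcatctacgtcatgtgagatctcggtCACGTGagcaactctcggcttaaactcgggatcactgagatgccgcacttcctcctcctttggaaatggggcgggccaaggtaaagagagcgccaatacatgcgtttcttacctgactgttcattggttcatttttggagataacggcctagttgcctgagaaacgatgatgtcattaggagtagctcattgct
Cln3: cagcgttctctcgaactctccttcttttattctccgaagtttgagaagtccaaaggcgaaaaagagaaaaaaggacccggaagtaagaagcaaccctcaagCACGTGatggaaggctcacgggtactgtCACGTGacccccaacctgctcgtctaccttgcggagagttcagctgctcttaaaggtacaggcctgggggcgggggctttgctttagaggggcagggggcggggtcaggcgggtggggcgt
Mcoln1: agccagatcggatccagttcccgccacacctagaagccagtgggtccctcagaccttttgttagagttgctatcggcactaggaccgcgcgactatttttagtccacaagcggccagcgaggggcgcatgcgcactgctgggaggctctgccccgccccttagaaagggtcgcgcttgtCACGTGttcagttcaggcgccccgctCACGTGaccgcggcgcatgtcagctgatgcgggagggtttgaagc

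Lamp1 had 4 matches, between 61 and 10 bases before the start site, and the other 3 genes had 2 each. Single matches were found in Glb1, Naglu, Gaa, Ifi30, Sgsh and Arsa. By median, the genes with the E-box were less abundant than those without it, but the ranges overlapped. The median with it was 85.7 TPM in replicate 1 and 87.4 TPM in replicate 2, against 413 and 393 TPM for the 27 genes without it. Mean levels ran from 23.0 TPM to 3057 TPM (Lamp1) with it and from 5.20 to 19017 TPM without it. A relation between the motif and the level was not tested.

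**Figure D1:**
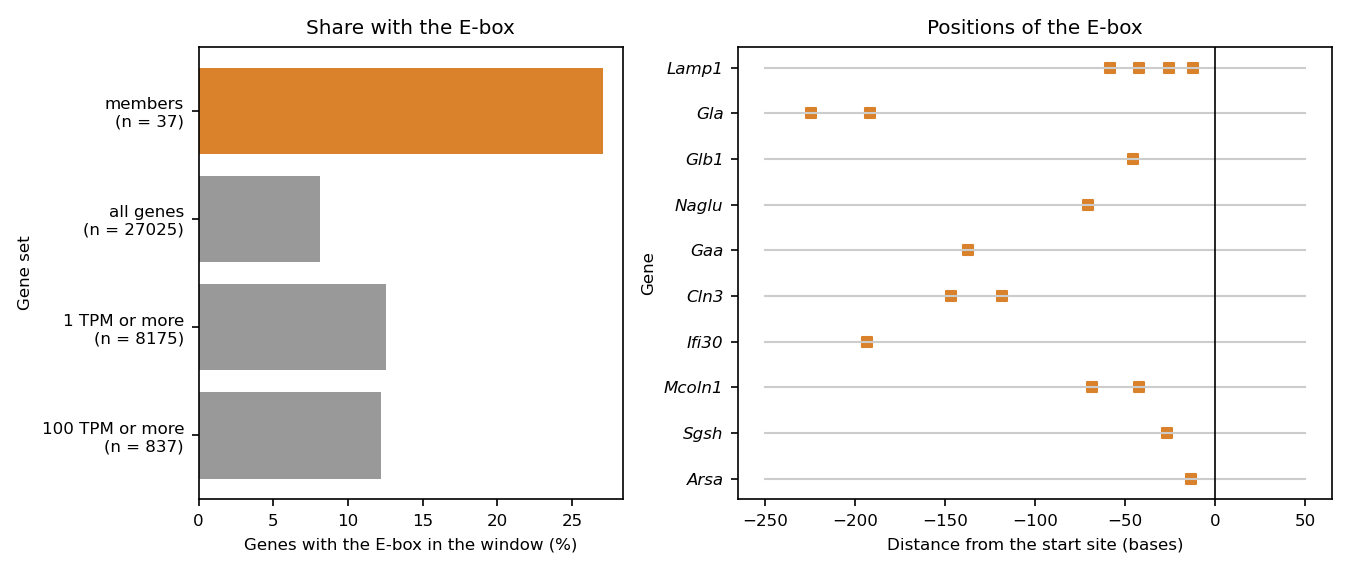
E-box (CACGTG) in promoter windows. Left: bars give the percent of genes in each set whose window holds the motif, 27.0% of the 37 lysosomal genes against 8.09% to 12.5% in the other sets. Right: squares give the position of each match in bases from the RefSeq start site (vertical line at 0). Shown are the 10 lysosomal genes that have one, with all 16 matches before that site.

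The cells carried the markers of macrophages. Each of the 8 macrophage markers exceeded 1 TPM in the 2 libraries, led by Cd68 at 3702 and 3370 TPM (replicate 1, then replicate 2, here and below), Csf1r at 764 and 882 TPM, Adgre1 at 799.6 and 710 TPM and Cd14 at 440 and 928 TPM. Neutrophil markers, summed over 8 genes, stood at 317 and 56.7 TPM, with 3 of the 8 below 1 TPM in both libraries. Of 6 osteoclast markers, which matter here because osteoclasts also secrete lysosomal enzymes, 2 reached 1 TPM in both, Acp5 and Ctsk, and Calcr had 0 counts. The 4 stromal markers and the 3 B cell markers were all below 1 TPM in both libraries, and of 5 mast cell markers none reached 1 TPM in both. Of 5 dendritic cell markers Itgax (7.11 and 3.88 TPM) and Batf3 (4.47 and 4.48 TPM) did, and of 4 T cell markers only Cd4, at 111 and 82.2 TPM. In such bulk samples fewer cells of a type and less RNA per cell cannot be told apart. Depth was 37784941 and 51904470 expected counts over annotated genes, of which ribosomal RNA genes took 10.9% and 5.05%.

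All 42 genes were expressed. Each reached 1 TPM in both libraries, as did 19.2% of all genes. In 41 the level was at least 10 TPM, against 11.6% of all genes and 60.3% of those that reached 1 TPM. At 100 TPM there were 23, against 1.95% of all genes and 10.2% of those that reached 1 TPM. At 1000 TPM there were 9, namely Lyz2, Gpnmb, Psap, Lamp1, Grn, Hexa, Cd63, Laptm5 and Pld3, against 0.175% of all genes and 0.910% of those that reached 1 TPM. Their median was 149.8 TPM in replicate 1 and 149.6 TPM in replicate 2, beside 15.3 and 17.1 TPM for the 10658 genes at 1 TPM or more. Of all counts in replicate 1 these genes together held 8.19%, with a 95% Wilson interval from 8.18% to 8.19%. In replicate 2 they held 8.24%, with an interval from 8.24% to 8.25%. With ribosomal RNA and mitochondrial genes left out of the total the order turned, to 9.35% in replicate 1 and 8.88% in replicate 2. The fewest counts behind any value were 122, for Lyz1 in replicate 1, so that all 42 could be compared between libraries. The abundance was uneven: the 5 genes with the highest TPM held 80.4% and 83.7% of the TPM of all 42.

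**Figure D2:**
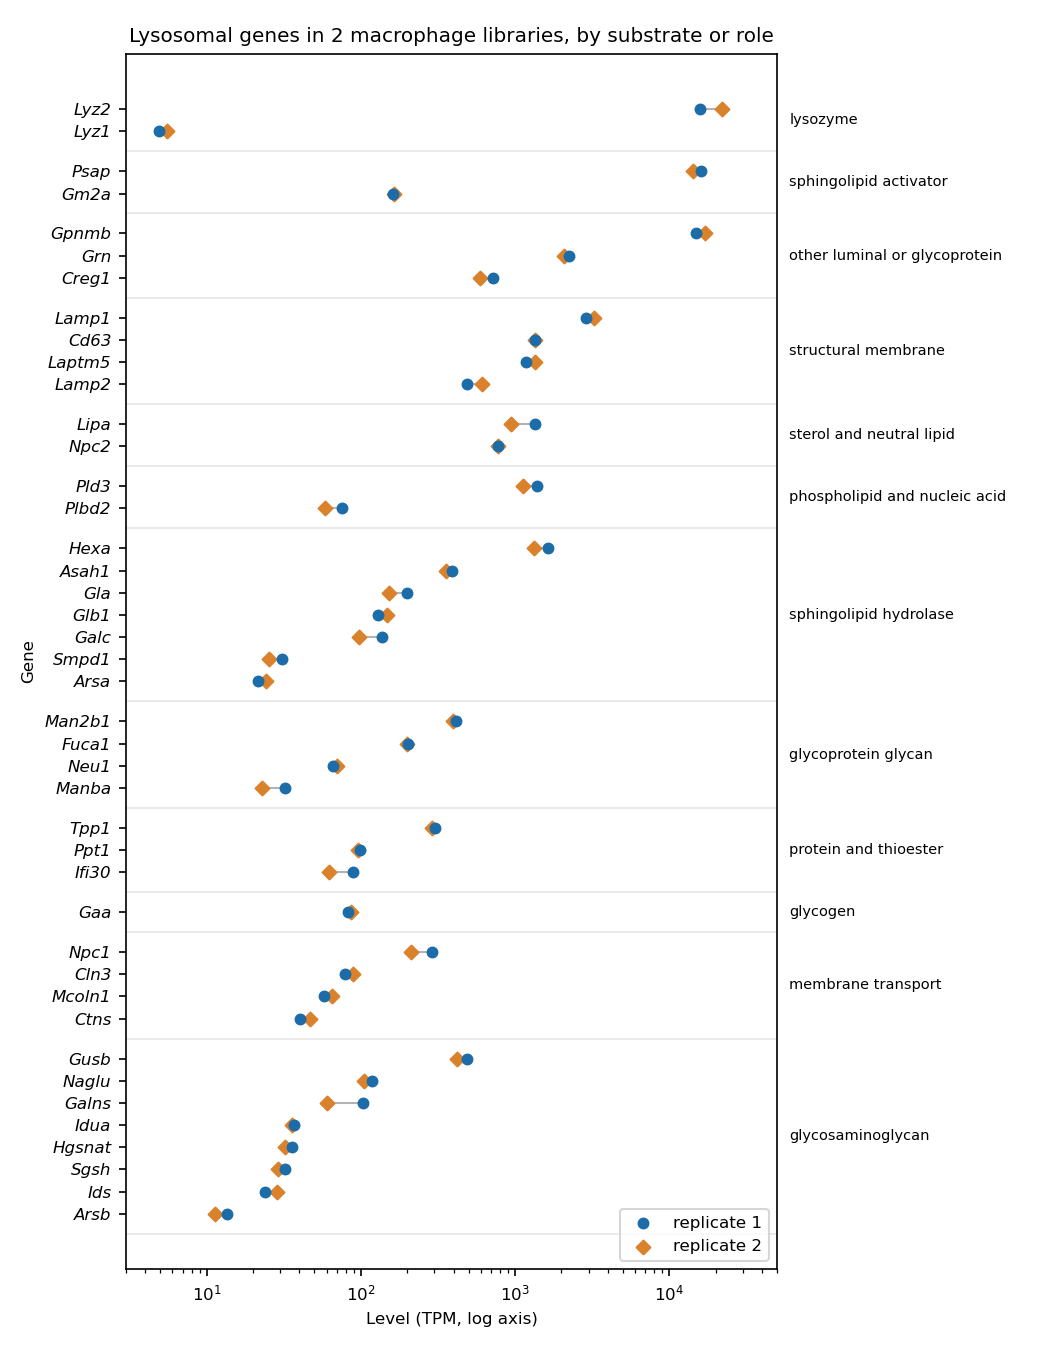
Level of each of the 42 genes in TPM on a log axis, grouped by substrate or role. Circles are replicate 1 and diamonds replicate 2, and a grey line joins the 2 values of a gene. Levels run from about 5 TPM for Lyz1 to 15907 and 22127 TPM for Lyz2, and for most genes the 2 libraries lie close together.

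The lysozyme genes stood at opposite ends of the range. Lysozyme cuts the peptidoglycan of bacterial cell walls, and in mice 2 neighbouring genes encode it. Lyz2 (ENSMUSG00000069516.8, chromosome 10, 117277331 to 117282321, mm10, minus strand) was at 15907 and 22127 TPM, a mean of 19017 ± 4398 TPM (SD, n = 2). Lyz1 (chromosome 10, 117287797 to 117292868, minus strand), which is known as the lysozyme of Paneth cells in the gut, was at 4.89 and 5.51 TPM. The TPM of Lyz2 was 3253 times that of Lyz1 in replicate 1 and 4016 times in replicate 2. The coding sequences of the pair are 95.1% identical over 447 bases, with 22 differences. Their first 150 coding bases are printed, with the 14 positions that differ in capitals. Within this part reads of the 2 genes can be told apart only at those positions.
Lyz1: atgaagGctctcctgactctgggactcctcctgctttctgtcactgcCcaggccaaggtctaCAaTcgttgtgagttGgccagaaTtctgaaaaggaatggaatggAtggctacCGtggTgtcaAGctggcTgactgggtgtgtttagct
Lyz2: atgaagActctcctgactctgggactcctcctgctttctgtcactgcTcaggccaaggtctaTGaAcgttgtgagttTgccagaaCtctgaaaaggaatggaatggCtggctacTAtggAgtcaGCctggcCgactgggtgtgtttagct

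Of the stretches of 31 bases in the Lyz1 transcript, 34.2% also occur in that of Lyz2. The 122 and 190 counts of Lyz1 can depend on how reads from such stretches were divided, and are uncertain to that extent. How many of them came from these stretches was not examined. In the second deposited quantification Lyz1 was at 3.29 and 3.57 TPM. Cd63 is the other gene with a close copy: 49.6% of its stretches of 31 bases occur in the pseudogene Cd63-ps, which was given 127 and 162 counts against 26695 and 36702 for Cd63. In the remaining genes the share was 5.71% or less.

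The 4 genes grouped here as structural proteins of the lysosomal membrane, not all of which give it structure, were abundant. Lamp1 (chromosome 8, mm10), the heavily glycosylated protein that lines the membrane, was at 2879 and 3235 TPM (3057 ± 252 TPM, SD, n = 2). Lamp2, its close relative, was lower at 490 and 610 TPM, so that the TPM of Lamp1 was 5.87 and 5.30 times that of Lamp2. The tetraspanin gene Cd63 was at 1339 and 1339 TPM. Laptm5, which encodes a membrane protein of blood cells that sorts receptors for degradation, was at 1181 and 1353 TPM. None of these 4 differed between the libraries by as much as 1.5-fold.

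Lamp2 was made as different transcripts. Its last exon is chosen from alternatives that encode the membrane-spanning end and the cytosolic tail, giving the forms LAMP-2A, LAMP-2B and LAMP-2C. LAMP-2A is the receptor of chaperone-mediated autophagy. The coding part of the last exon is printed for the 3 transcripts, since it is the whole of their coding difference, with the stop codon in capitals. The coding bases before this exon are the same in the 3, as is the first base printed, which makes 1109 shared bases in all. The exons lie at chrX:38405432-38405571 (Lamp2-201, the LAMP-2A form), chrX:38421712-38421851 (Lamp2-202, LAMP-2B) and chrX:38402139-38402281 (Lamp2-203, LAMP-2C), on mm10 and the minus strand.
Lamp2-201: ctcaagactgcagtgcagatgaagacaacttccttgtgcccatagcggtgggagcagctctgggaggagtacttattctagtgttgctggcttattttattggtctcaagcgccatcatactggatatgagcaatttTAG
Lamp2-202: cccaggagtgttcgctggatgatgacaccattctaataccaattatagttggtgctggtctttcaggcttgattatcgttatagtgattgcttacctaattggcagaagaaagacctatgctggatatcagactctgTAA
Lamp2-203: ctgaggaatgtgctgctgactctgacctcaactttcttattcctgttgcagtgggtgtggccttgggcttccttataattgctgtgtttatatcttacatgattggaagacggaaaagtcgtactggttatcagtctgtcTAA

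The LAMP-2A transcript led in both libraries, with 51.6% and 61.8% of the TPM of the gene, or 253 and 377 TPM. The LAMP-2B transcript took 48.0% and 37.9%, or 236 and 231 TPM. LAMP-2C, at 1.23 and 1.22 TPM, took 0.251% and 0.200%. The second quantification gave the LAMP-2A transcript 54.1% and 63.7%, with the same order in each library. By counts the order was the other way, 9510 and 19782 for Lamp2-201 against 19652 and 27180 for Lamp2-202, whose annotated transcript is 3604 bases long against 1769. The balance of the first 2 forms therefore rests on the scaling by length. The LAMP-2A share was higher in replicate 2 in both quantifications, and 1 library on each side allows no test of that.

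**Figure D3:**
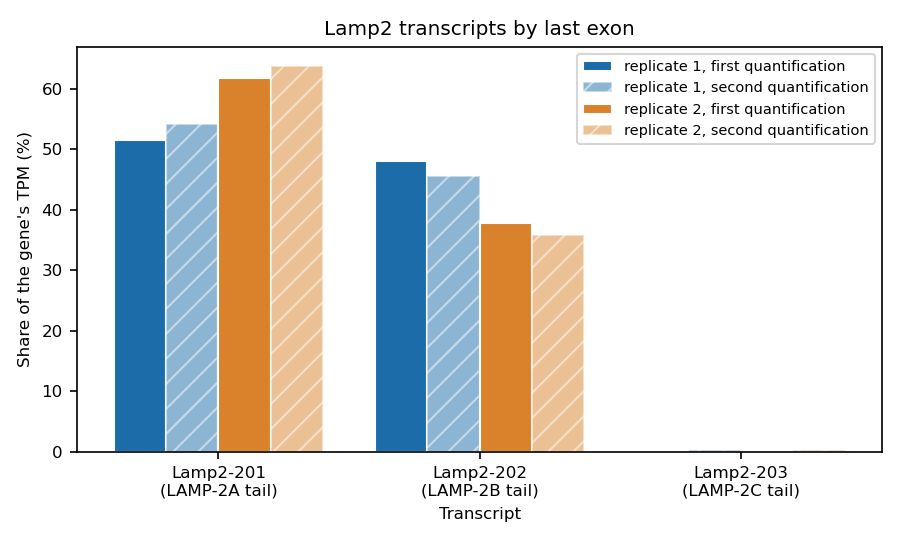
Share of the TPM of Lamp2 held by each transcript, in percent. Bars are the 2 libraries in the 2 deposited quantifications (hatched for the second). The LAMP-2A transcript is the highest in all 4, from 51.6% to 63.7%, and the LAMP-2C transcript is close to 0.

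Membrane transporters and channels were less abundant than the structural proteins. Npc1, which passes cholesterol out through the lysosomal membrane, was at 290 and 213 TPM. In the first transcript table a transcript annotated as a retained intron, Npc1-206, took 43.1% and 43.3% of the TPM of the gene, but 16.7% and 15.7% in the second. Npc1 stood at 195 and 152 TPM in the second quantification. Cln3 was at 79.0 and 88.6 TPM, Mcoln1 at 57.9 and 64.8 TPM and Ctns, the cystine exporter that is defective in cystinosis, at 40.6 and 46.7 TPM. These 3 were slightly higher in replicate 2 and Npc1 was lower. Cln3 has 19 annotated transcripts, of which the leading one, Cln3-204, took 28.2% and 28.1% of its TPM. The second table put another, Cln3-203, first, so which form of Cln3 was made is uncertain.

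Genes for the handling of sterols and neutral lipids were high. Lipa, the acid lipase that splits cholesteryl esters and triglycerides, was at 1349 and 947 TPM. Npc2, the soluble protein that hands the freed cholesterol to NPC1, was at 781 and 774 TPM. The TPM of Lipa was 4.65 and 4.45 times that of Npc1, and that of Npc2 was 2.69 and 3.64 times. In TPM, Lipa was thus lower in replicate 2 together with Npc1, while Npc2 was nearly level. By the scaled counts compared below, Npc2 was slightly lower in replicate 2 as well.

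For sphingolipids 1 of the 2 activator genes, Psap, stood far above the enzymes. Psap (chromosome 10, mm10) encodes prosaposin, which is cut into the saposins that lift lipids out of the membrane, and was at 16011 and 14204 TPM. It ranked 7th of all 55536 genes. Its transcript Psap-202 took 93.3% and 94.2% of the TPM of the gene. Gm2a, the activator that presents the ganglioside GM2 to hexosaminidase A, was at 163 and 164 TPM, a mean below those of the hydrolase genes Hexa, Asah1 and Gla.

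The 7 sphingolipid hydrolases ranged from a mean of 23.0 TPM to one of 1482 TPM. Hexa, the alpha subunit of the hexosaminidase that is defective in Tay-Sachs disease, was highest at 1638 and 1327 TPM. The acid ceramidase gene Asah1 came next at 390 and 358 TPM, followed by Gla at 198 and 152 TPM. Glb1, which encodes the beta-galactosidase that is defective in GM1 gangliosidosis, was at 129 and 147 TPM, and Galc, the galactocerebrosidase of Krabbe disease, at 137 and 96.9 TPM. The order of this pair differed between the libraries. Smpd1, the acid sphingomyelinase, was at 30.9 and 25.2 TPM and Arsa, the arylsulfatase that removes the sulfate of sulfatide, at 21.6 and 24.4 TPM. For Arsa the leading transcript, with 68.3% and 69.8% of its TPM, is annotated as a retained intron, and the coding transcript Arsa-202 took 29.5% and 27.3%. The second quantification gave the same order, with 64.9% and 65.3% for the retained intron.

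Enzymes that take apart glycosaminoglycans had the lowest median of any class, 36.3 and 34.1 TPM over 8 genes. Gusb, the beta-glucuronidase, stood apart from the others at 490 and 423 TPM. The heparan sulfate enzymes act in turn on the same chain. Of these, Naglu was at 118 and 104 TPM, the iduronidase gene Idua at 36.9 and 36.0 TPM, the membrane acetyltransferase gene Hgsnat at 35.7 and 32.3 TPM, the sulfamidase gene Sgsh at 32.4 and 29.1 TPM and the iduronate sulfatase gene Ids at 23.8 and 28.8 TPM. The last 4 lay close together and in the same order in each library, with Sgsh and Ids nearly level in replicate 2. The order did not hold in the second quantification. There Sgsh, at 26.1 and 26.4 TPM, stood above Hgsnat, at 25.1 and 25.2 TPM, and Ids, at 25.3 TPM, also passed Hgsnat in replicate 2. Galns, which acts on keratan sulfate, was at 103 and 60.6 TPM, the largest ratio between the libraries in the class. Arsb, which acts on dermatan sulfate, was the lowest at 13.5 and 11.4 TPM.

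Enzymes for the sugar chains of glycoproteins ranged from a mean of 27.6 TPM to one of 403 TPM. Man2b1, the alpha-mannosidase, was at 413 and 393 TPM and Manba, the beta-mannosidase, at 32.1 and 23.0 TPM. Neu1, the sialidase, was at 66.1 and 70.0 TPM. It works in a complex with Glb1 and with the protective protein encoded by Ctsa, and the TPM of Ctsa was 22.7 and 17.1 times that of Neu1. Fuca1, the fucosidase, was at 203 and 198 TPM as deposited, a value that is taken up again below. The glycogen-splitting glucosidase gene Gaa, defective in Pompe disease, was at 82.7 and 86.2 TPM.

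Proteases and enzymes for modified proteins lay in the middle of the range. Tpp1, a tripeptidyl peptidase, was at 301 and 290 TPM and Ppt1, the thioesterase that strips palmitate from proteins, at 98.1 and 95.6 TPM. Loss of either causes a childhood form of neuronal ceroid lipofuscinosis. Ifi30 encodes the thiol reductase GILT, which opens disulfide bonds of antigens, and was at 88.7 and 61.8 TPM. Both of its annotated transcripts are classed as processed transcripts without a coding sequence in this annotation. Pld3, which encodes a lysosomal nuclease of the phospholipase D family, was at 1398 and 1133 TPM and Plbd2, a phospholipase B-like protein, at 75.0 and 58.8 TPM.

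Of the remaining 3 genes, Grn, which encodes progranulin, was at 2249 and 2069 TPM. Gpnmb, a membrane glycoprotein of lysosomes and melanosomes that macrophages make when loaded with lipid, was at 15027 and 17046 TPM. Creg1, a secreted and lysosomal glycoprotein, was at 724 and 594 TPM. The last 2 values, like that of Fuca1, rested in part on very short annotated transcripts.

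A short transcript offers few positions for a fragment to start, so a few reads weigh heavily in TPM. The transcript Gpnmb-202, 365 bases long, received 2.17% and 2.87% of the counts of Gpnmb but 38.7% and 48.8% of its TPM. The second quantification gave it 0.979% and 4.64% of the TPM. With transcripts under 500 bases left out, Gpnmb was at 9207 and 8732 TPM, and the direction of its difference in TPM between the libraries turned. In Fuca1 a noncoding transcript of 401 bases took 8.36% and 4.83% of the counts and 57.7% and 45.8% of the TPM, and without it Fuca1 was at 85.7 and 107 TPM. In Creg1 the short transcript Creg1-201 took 30.4% of the TPM of replicate 1 and none of that of replicate 2. Without it Creg1 was at 504 and 594 TPM, higher in replicate 2, where the deposited TPM was lower.

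Short transcripts took 10% or more of the TPM in both libraries in 3 of the 42 genes, Fuca1, Gpnmb and Mcoln1, against 6.71% of the genes kept by the count filter, and in 6 of 42 (14.3%) in at least 1 library, against 11.7%. Leaving them out changed the level of Fuca1 and Gpnmb by more than 1.5-fold and that of the other 40 by less. This limit of 500 bases was chosen after the values were seen.

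**Figure D4:**
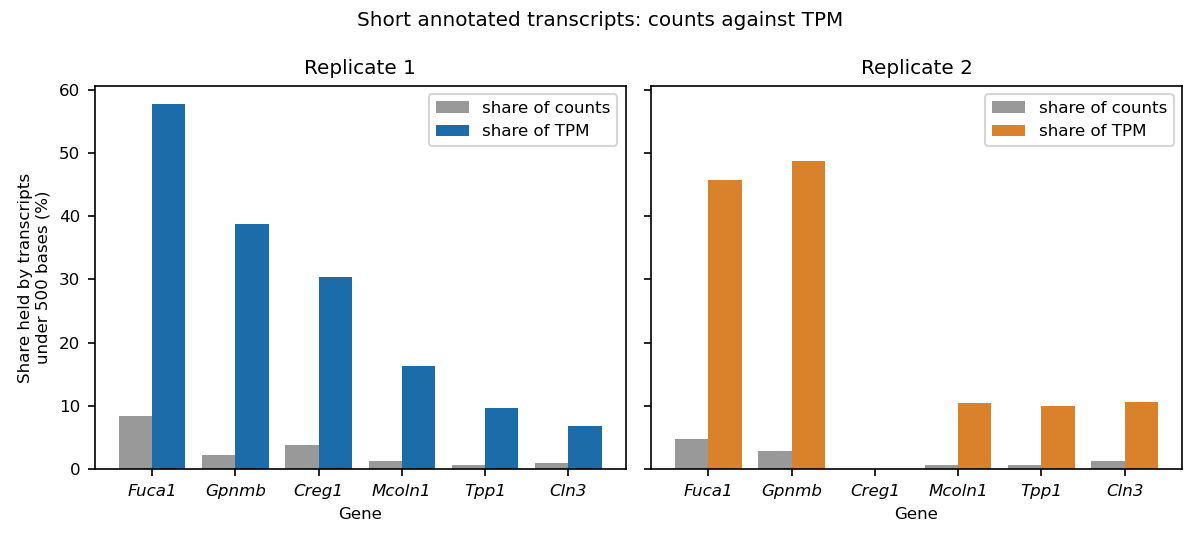
Share of the counts (grey bars) and of the TPM (coloured bars) of a gene held by its annotated transcripts under 500 bases, in percent, in each library. Shown are the 6 genes whose level moved most when these transcripts were left out. In Fuca1 8.36% of the counts of replicate 1 carried 57.7% of the TPM, and in Creg1 the share was 30.4% in replicate 1 and 0 in replicate 2.

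In most of the 42 genes a single transcript accounted for the level. The genes have 218 annotated transcripts in all. The leading transcript took 80% or more of the TPM in both libraries in 28 genes, beside 50.5% of the genes kept by the count filter. It was protein-coding in 39, beside 86.9%. It was the same transcript in both libraries and both quantifications in 38, beside 82.2%. Besides the genes already named, the leading transcript took less than 80% in both libraries in Gaa, Hgsnat, Idua and Mcoln1. Gaa was divided between Gaa-201 (59.9% and 61.8%) and Gaa-203 (38.3% and 36.2%), both coding, and the second table put Gaa-203 slightly ahead on the mean of the libraries. Hgsnat-201 took 71.8% and 66.0%, with a retained intron transcript at 28.2% and 34.0%. Idua-202 took 66.1% and 68.6% in the first table but 91.9% and 93.2% in the second, and Mcoln1-201 took 78.7% and 72.4% against 91.0% and 82.0%.

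The second deposited quantification gave lower TPM for 38 of the 42 genes, with a median ratio to the first of 0.842, close to the 0.867 of all genes kept. Only Gpnmb and Lyz1 differed by 1.5-fold or more between the quantifications, against 6.76% of all genes kept. Gpnmb was at 7797 and 8415 TPM in the second. Lyz1 is the gene that shares part of its sequence with its neighbour Lyz2, and whether that bears on its difference was not tested.

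Between the libraries the levels of these genes differed little. For this comparison counts were scaled by the TMM method, and the log2 ratio is replicate 2 over replicate 1. The median over the 42 genes was -0.16, beside 0.00 over the 12266 genes kept and -0.09 over the 1215 of them at a mean of 100 TPM or more. Of the 42, 28 were lower and 14 higher in replicate 2, against 49.8% lower among all genes kept and 59.8% lower among those at 100 TPM or more. There were 4 genes beyond 1.5-fold, all lower in replicate 2, which is 4 of 42 beside 7.78% of all genes kept and 5.19% of those at 100 TPM or more. None was more than 1.5-fold higher, beside 13.0% of all genes kept and 7.65% of those at 100 TPM or more, and none lay beyond 2-fold, beside 2.86% lower and 4.79% higher. With 1 library on each side there is no test, and these counts describe the 2 libraries.

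**Figure D5:**
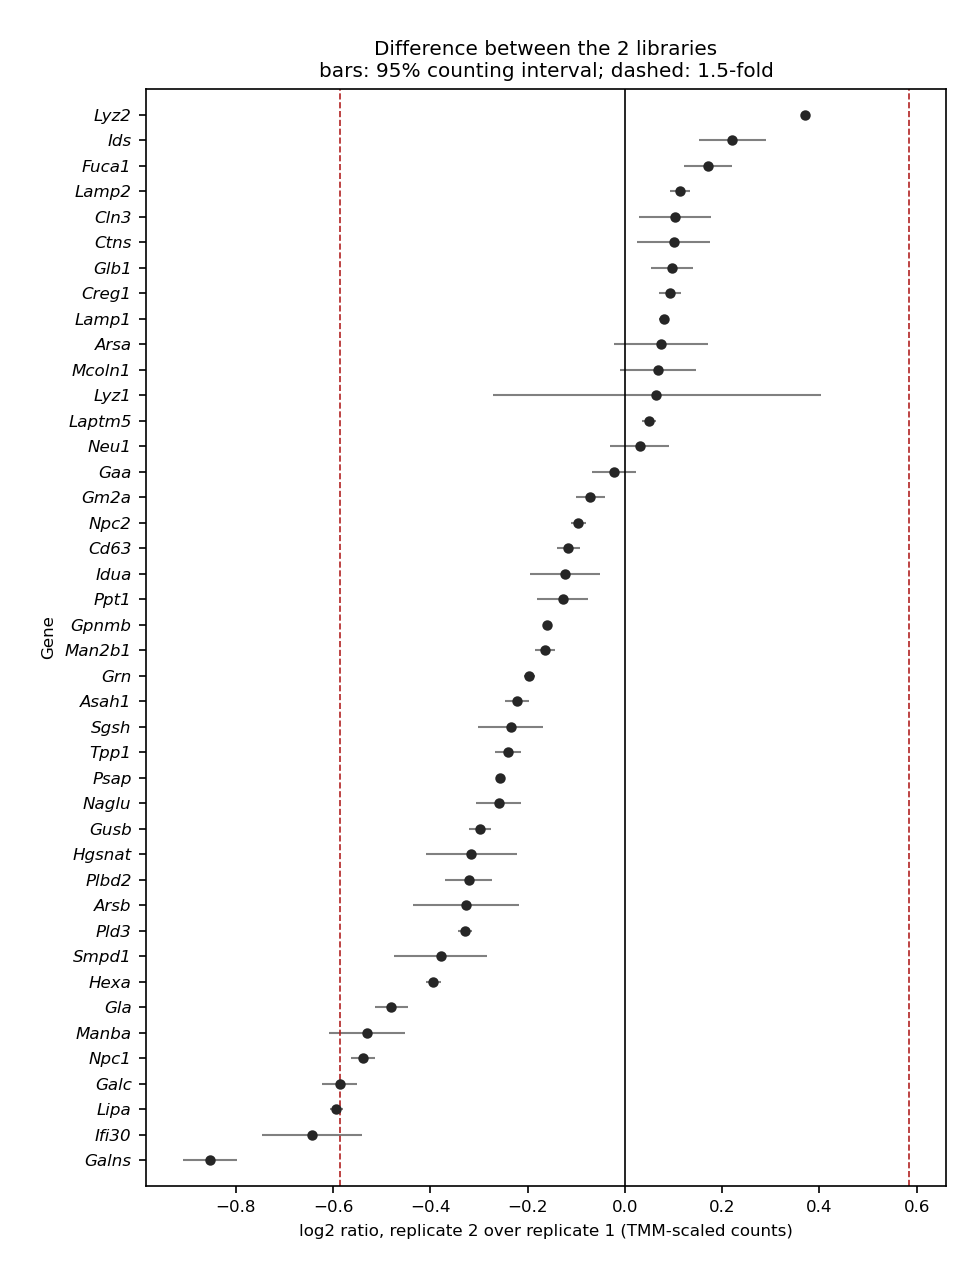
log2 ratio of replicate 2 over replicate 1 for each of the 42 genes, from TMM-scaled counts. Points are the ratios, bars their 95% counting intervals and dashed lines a 1.5-fold difference. Galns, Ifi30, Lipa and Galc lie below the lower dashed line and no gene lies above the upper one.

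The 4 genes beyond 1.5-fold belong to different pathways. Galns had 5762 counts in replicate 1 and 4751 in replicate 2 despite the greater depth of the latter, a log2 ratio of -0.85 (95% counting interval -0.91 to -0.80). Ifi30 had 1587 and 1514 counts and a ratio of -0.64 (-0.75 to -0.54). For Lipa, with 90892 and 89761 counts, it was -0.59 (-0.61 to -0.58), and for Galc, with 12146 and 12053 counts, -0.59 (-0.62 to -0.55). Galc was the nearest gene beyond the limit and Npc1, at -0.54 (-0.56 to -0.51), the nearest within it. Manba (-0.53) and Gla (-0.48) followed. Scaled by total counts or as deposited TPM, only Galns lay beyond 1.5-fold.

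Lyz2 showed the largest difference upward, at 0.37 (0.37 to 0.38), followed by Ids at 0.22 and Fuca1 at 0.17. Lamp1 and Lamp2, at 0.08 and 0.11, were higher by small amounts in replicate 2. The counting interval lay wholly below 0 for 27 genes, beside 32.5% of all genes kept and 54.1% of those at 100 TPM or more. It lay wholly above 0 for 10, beside 33.2% and 34.6%, and held 0 for 5, namely Arsa, Gaa, Lyz1, Mcoln1 and Neu1. By class, 7 of 8 glycosaminoglycan genes were lower in replicate 2, as were 5 of 7 sphingolipid hydrolases and all 3 of Tpp1, Ppt1 and Ifi30. So were Psap and Gm2a, Lipa and Npc2, and Pld3 and Plbd2, while both lysozyme genes were higher. The glycoprotein glycan genes were evenly divided. Among all genes kept 49.8% were lower, and 59.8% of those at 100 TPM or more. These small classes were not tested against those shares. Of the 4 structural membrane genes 3 were higher (Laptm5 only just, and not in the second quantification), as were 3 of the 4 for membrane transport. Markers of neutrophils, which carry lysozyme and other granule enzymes, were lower in replicate 2 for all 3 that could be compared, S100a9 at 183 and 37.1 TPM among them. Their part in these differences was not tested.

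Some of the genes overlap others on the opposite strand, and the labels do not say whether the counting used strand. The lincRNA Gm26527 covers 32.3% of the exonic bases of Arsb and was given 335 and 331 counts against 1270 and 1508 for Arsb. Card14 covers 21.6% of those of Sgsh, C230037L18Rik 18.8% of Arsa and Tmem202 12.8% of Hexa, each with 105 counts or fewer. Cln3 shares 7.65% of its exonic bases with Apobr, which had 5145 and 5799 counts against 2405 and 3846 for Cln3. Ppt1 shares 3.51% with Cap1, which had 25976 and 32452 counts against 5182 and 7066 for Ppt1. These levels are uncertain to that extent.

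Genes that surround these 42 in the pathway were read from 4 further lists. All 22 other lysosomal hydrolases reached 1 TPM in each library and 12 of them 100 TPM, and their medians were 151 and 131 TPM. Ctsa, the protective protein, led at 1499 and 1199 TPM, with the carboxypeptidase gene Scpep1 at 439 and 429 TPM and the nuclease gene Pld4 at 190.0 and 332 TPM. Of the 22, 2 were more than 1.5-fold higher in replicate 2, Pld4 and Rnaset2a, beside 13.0% of all genes kept. More than 1.5-fold lower were 3, Pla2g15 and Hyal1 among them, beside 7.78%. Rnaset2a has a close copy, Rnaset2b, so its counts are uncertain. Of 27 other lysosomal membrane proteins 24 reached 1 TPM in each library. Of the 25 kept by the count filter, Slc11a1 and Abcb9 were more than 1.5-fold lower in replicate 2, beside 7.78% of all genes kept. None was more than 1.5-fold higher, beside 13.0%. Cd68 led at 3702 and 3370 TPM, followed by the metal ion exporter Slc11a1 at 497 and 385 TPM, the peptide transporter Slc15a3 at 457 and 384 TPM and Laptm4a at 405 and 381 TPM. Lamp3 and Lamp5, relatives of Lamp1 found in dendritic cells and neurons, had 0 counts in both libraries, where 3 counts would be 0.0794 and 0.0578 CPM.

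The machinery that delivers the hydrolases was expressed throughout. All 11 genes of this list, not all of which act through mannose 6-phosphate, exceeded 10 TPM in each library. Their medians were 48.1 and 40.8 TPM. The smaller receptor gene M6pr was at 312 and 247 TPM and the larger one, Igf2r, at 68.2 and 40.8 TPM, so that the TPM of M6pr was 4.58 and 6.04 times that of Igf2r. Scarb2, which carries glucocerebrosidase to the lysosome without the tag, was at 142 and 110 TPM. Sumf1, which activates every sulfatase, was at 67.4 and 76.8 TPM. The 2 genes of this list that were more than 1.5-fold lower in replicate 2 were Sort1, at 49.95 and 22.8 TPM, and Igf2r. Of all genes kept 7.78% were lower by that much. None of the list was more than 1.5-fold higher, beside 13.0% of all genes kept.

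The factors that bind the CLEAR element were expressed as well. All 13 genes of that list, factors and regulators, exceeded 1 TPM in each library, and their medians were 25.1 and 37.2 TPM. These medians fall on different genes, Tfec in replicate 1 and Ppp3cb in replicate 2. Gene by gene the median log2 ratio from TMM-scaled counts was only 0.07. Tfe3 was at 84.3 and 97.3 TPM, Tfec at 25.1 and 38.8 TPM, Tfeb at 24.1 and 27.3 TPM and Mitf at 17.8 and 26.6 TPM. Of the regulators that hold these factors in the cytosol, Rragc was at 243 and 254 TPM, Fnip2 at 109 and 122 TPM and Flcn at 46.9 and 53.7 TPM. Of the 13 only Fnip1 was more than 1.5-fold higher in replicate 2, at 24.5 and 41.2 TPM, beside 13.0% of all genes kept. None was lower by that much, beside 7.78%.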

How the data were processed

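The series held 2 libraries of polyadenylated RNA, and 3 tables per library were used. Per the file headers and the notes deposited with them, the gene and the first transcript table give expected counts (estimated reads, not normalized) and TPM, made from a transcriptome alignment on assembly mm10 with annotation M21. The second transcript table, made from the reads and an index, also holds estimated counts and TPM as deposited and was summed per gene as an alternative. For the tools behind them, name and version were not given in the sources used here. Entries that name no gene numbered 26345 in each gene table, with 0.0891% and 0.0698% of the counts, and were left out.

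Members and lists were chosen with earlier results of these data known. Genes were matched by symbol, and a gene name table held 55450 of the 55536 identifiers. Expected counts were rounded and scaled by TMM in edgeR 4.0.16 after filterByExpr, with a prior count of 2. All 42 members passed. Intervals of a ratio are exact binomial (Clopper-Pearson), those of shares Wilson, at 95%. They and the floor of 3 counts cover counting error only. No molecular identifiers are described, so reads need not be independent molecules. With 1 group no test was possible, and ± is the SD over 2 libraries, which may share a donor. The scaling code was checked on simulated counts with counting noise only and 1 shared profile apart from a small set of changed genes. That check does not show how well the scaling suits these libraries, whose shares of ribosomal RNA differ. Named were all 42 members, in each further list the 4 of highest mean TPM and those below 1 TPM in both libraries, and transcripts where the leading one took under 80% in both libraries or was not coding. The LAMP-2 form of a transcript was assigned from the amino acids encoded by its last exon. Other list genes were named after their values were seen, and some results that the naming rule covers are not reported here. DESeq2 1.42.0 size factors were an alternative. Sequences are from RefSeq (promoters) and GENCODE M21 (transcripts).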

Additional observations from a re-analysis of the deposited data

How the results depend on the processing

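The median level of the 42 genes, 149.7 TPM, was 145 as posterior mean TPM, 129.9 in the second quantification and 176 when ribosomal RNA and mitochondrial genes were left out of the scale. It was 129 without transcripts under 500 bases, an alternative added after the data were seen. It lay between 149.6 and 149.8 with either library left out. The counts of genes at 1 TPM and at 100 TPM or more stayed within 1.5 times under every limit, quantification and left-out library tried. The median log2 ratio, -0.16, was -0.0452 scaled by total counts, -0.0623 as TPM, -0.15 as rescaled TPM, -0.18 without a filter and -0.21 in the second quantification. Over all genes kept, scaling by total counts moved the median up by 0.12. The 4 genes more than 1.5-fold lower became 1 by total counts, 1 as TPM, 0 at a limit of 2-fold and 11 at a limit of 5 to 4, at which 1 gene was higher. With DESeq2 size factors the count was 4, and in the second quantification 5. The sign of the ratio differed from that under TMM for 4 genes by total counts (Cd63, Gaa, Gm2a and Npc2) and for 5 as TPM (Creg1, Fuca1, Gaa, Gm2a and Gpnmb). It differed for 4 as rescaled TPM (Creg1, Fuca1, Gpnmb and Neu1) and for 3 in the second quantification (Laptm5, Lyz1 and Neu1). Apart from the scaling shift, the cause was not tested. Ratios could not be recomputed with a library left out. No paired analysis was possible because there is a single group.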
